A study of Mus musculus with 4 samples.

Results

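Cycling cardiomyocytes in G2/M were 4762 of the 61172 cell barcodes from ventricles of embryonic mouse hearts. They comprised 1284 and 983 barcodes in KO libraries 1 and 2, and 1235 and 1260 barcodes in het libraries 1 and 2. A barcode was chosen by 5 conditions. It had at least 1000 detected genes and under 10% mitochondrial UMIs (unique molecular identifiers, 1 per counted transcript). At least 4% of its UMIs came from Tnnt2, Tnni1, Tnnc1, Actc1, Myl3, Myl4, Myl7 and Myh7. It had at least 3 UMIs of Ube2c, Ccnb1 and Cdc20 together, and at most 2 UMIs of the atrial and sinus genes Sln, Shox2 and Cacna2d2. Levels of all these genes in the chosen cells are therefore a description and not a result.

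KO embryos were Gata4fl/fl, with 2 floxed alleles of the transcription factor gene Gata4, and het embryos were Gata4fl/+, with 1 floxed allele. Embryos of both groups carried a Rosa26 mTmG reporter allele and Cdh5(Pac)-CreER, a tamoxifen-inducible Cre driven in endothelial cells. Both groups received tamoxifen at embryonic day 9.5 (E9.5) and hearts were collected at E12.5, with 2 libraries per group. The driver acts in endothelium, so cardiomyocytes were not the intended target of the Gata4 deletion. No group was free of Cre, tamoxifen or a floxed allele. Whether each library came from 1 embryo or from pooled embryos is not given in the labels, so p-values measure the spread between these libraries only.

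Embryonic cardiomyocytes divide while they contract, and the ventricular wall grows mainly by this division before birth. In G2 and mitosis, cyclin B bound to Cdk1 drives the cell into division, the spindle captures chromosomes at kinetochores, and the anaphase-promoting complex then marks cyclin B and securin for breakdown. Ube2c is the ubiquitin-conjugating enzyme and Cdc20 the activator of that complex, and Ccnb1 encodes cyclin B1. Transcripts of these genes peak late in the cycle and fall after division.

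The libraries held from 137890971 to 190207638 UMIs in all. The chosen cells had medians of 7191.5 and 12259 UMIs in the KO libraries and 7083 and 17667.5 UMIs in the het libraries. The comparison cells within the same hearts were cardiomyocytes that met every other condition but had 0 UMIs of Ube2c, Ccnb1 and Cdc20. These numbered 1213 and 714 in the KO libraries and 931 and 720 in the het libraries, and were shallower, with medians of 4419 and 6031.5 UMIs in KO and 3908 and 5566.5 UMIs in het. Because a deeper cell reaches 3 UMIs more easily, values were also computed after thinning, that is, after drawing 5000 UMIs at random from each cell and leaving out shallower cells. Only 1 cell barcode was shared by chosen cells of 2 libraries. Het library 1 stood apart in erythroid UMIs: 250 of its chosen barcodes (20.2%) had at least 2% erythroid UMIs, against 53 (4.13%) in KO 1, 1 (0.102%) in KO 2 and 16 (1.27%) in het 2.

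Levels below are CPM, the UMIs of a gene summed over the cells of a library and scaled to counts per 1000000 of all UMIs so summed. Ube2c, on chromosome 2 (GRCm38 164769898 to 164778822, plus strand), stood at 793 and 687 CPM in KO and 791 and 537 CPM in het. Ccnb1, on chromosome 13 (100778650 to 100786570, minus strand), stood at 182 and 152 CPM in KO and 150 and 130 CPM in het. Cdc20, on chromosome 4 (118432901 to 118437352, minus strand), stood at 134 and 105 CPM in KO and 120 and 97.9 CPM in het. Ube2c thus supplied most of the UMIs that chose the cells, and the 2 KO libraries overlapped the 2 het libraries for Ube2c and Cdc20. After thinning, Ube2c was the highest of the 3 genes in 81.7% and 78.6% of chosen cells in KO and in 80% and 71.2% in het. All 3 genes were seen together in 30.3% and 23.3% of chosen cells in KO and in 22.4% and 21.8% in het.

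The promoters of late cell-cycle genes are known for the CHR, a short element bound by the DREAM and MuvB complexes, and for CCAAT boxes bound by NF-Y. The 120 bases before the RefSeq start are shown for the rule's 3 genes, whose transcripts chose the cells, and for Cdk1, the kinase that cyclin B1 activates, and Ccnb2, which encodes cyclin B2, to show where these elements stand in genes of the same step. They are on GRCm38.p6, at chr2:164769809-164769928 (plus strand), chr13:100786487-100786606 (minus), chr4:118437344-118437463 (minus), chr10:69352913-69353032 (minus) and chr9:70421555-70421674 (minus), written 5′ to 3′ along each gene. Capitals mark the CHR letters TTTGAA or TTCGAA and the CCAAT box, on either strand.
Ube2c: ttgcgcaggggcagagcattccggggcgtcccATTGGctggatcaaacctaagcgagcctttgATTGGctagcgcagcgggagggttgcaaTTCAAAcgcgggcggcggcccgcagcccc
Ccnb1: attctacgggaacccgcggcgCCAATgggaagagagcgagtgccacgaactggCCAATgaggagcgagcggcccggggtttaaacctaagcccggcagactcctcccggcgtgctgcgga
Cdc20: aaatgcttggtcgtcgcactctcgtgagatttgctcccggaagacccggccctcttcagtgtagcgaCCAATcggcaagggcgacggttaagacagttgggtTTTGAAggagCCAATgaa
Cdk1: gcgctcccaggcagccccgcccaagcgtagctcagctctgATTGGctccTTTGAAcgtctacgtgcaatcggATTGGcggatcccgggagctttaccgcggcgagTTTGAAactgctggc
Ccnb2: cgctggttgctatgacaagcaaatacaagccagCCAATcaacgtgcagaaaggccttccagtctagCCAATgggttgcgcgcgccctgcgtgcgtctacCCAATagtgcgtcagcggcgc
Neighbouring CCAAT boxes began 31 bases apart in Ube2c, 32 in Ccnb1, 32 in Cdk1 and 33 at both steps in Ccnb2. In Cdc20 they began 45 bases apart. A CHR began 29 bases before the start in Ube2c and 18 in Cdc20, and in Cdk1 CHR letters began at 71 and at 15. These letters were not found in the 120 bases of Ccnb1 or Ccnb2.

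Over whole RefSeq promoters of 300 bases (250 before and 50 after the start), CHR letters were found in 6316 of 32851 promoters (19.2%) and a CCAAT box in 12289 (37.4%). RefSeq promoters were matched for 77 of 92 mitotic genes that were at least 2-fold higher in G2/M cardiomyocytes of every library. CHR letters stood in 58 of their 81 promoters (71.6%), and a CCAAT box also in 58 (71.6%). For the other 48 genes of the same lists, 40 of which matched, CHR letters stood in 11 of 52 promoters (21.2%) and a CCAAT box in 23 (44.2%). Both elements stood together in 46 (56.8%) and 3 (5.77%) of these promoters, against 2472 (7.53%) of all promoters. Among G1/S and replication genes, CHR letters stood in 5 of 35 promoters (14.3%). Sarcomere genes held them in 4 of 39 promoters (10.3%). A match is a description of the letters and not of binding.

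The label was checked with genes that the rule did not use. The 12 G2/M genes Plk1, Aurka, Cenpf, Top2a, Hmmr, Tpx2, Ccnb2, Cdca3, Cdca8, Birc5, Nusap1 and Cenpe together had medians of 16 and 19 UMIs per chosen cell in KO and of 12 and 28 UMIs in het, against a median of 1 UMI in the comparison cells of each library. At an equal depth of 5000 UMIs, at least 5 such UMIs were present in 82.8% and 75.6% of chosen cells in KO and in 76.5% and 74.3% in het, against 4.95% to 8.68% of comparison cells. Myl2, the ventricular regulatory light chain, averaged 81.2 and 90.9 UMIs per chosen cell after thinning in KO and 90.02 and 70.9 UMIs in het. Detection alone shows little here, since the globin gene Hbb-y also had a UMI in 96.6% to 100% of these cells. Summed Myl2 levels were 14661 and 15732 CPM in KO and 16960 and 12169 CPM in het, and they were higher in the comparison cells of each library. The endothelial gene Pecam1 had a UMI in 1.2% and 0.2% of chosen cells in KO and in 2.5% and 1.5% in het, and in 2.1% and 0.71% of comparison cells in KO and 2.1% and 0.25% in het. Whole marker lists were seen more often. Without thinning, any of 14 endothelial markers had a UMI in 34.7% and 32.9% of chosen cells in KO and 40.8% and 50.2% in het. Any of 12 mesenchymal markers did in 45.4% and 45.0% in KO and 50.9% and 58.3% in het. For 9 epicardial markers these shares were 51.0% and 62.4% in KO and 50.9% and 66.0% in het. Rule-gene UMIs were not limited to cardiomyocytes: of globin-rich barcodes, with at least 50% of their UMIs from erythroid genes, 12.6% and 16.8% reached 3 rule UMIs after thinning in KO and 7.68% and 6.93% in het.

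Neither limit of the rule fell in a gap. Barcodes with exactly 3 UMIs of the rule's G2/M genes numbered 217 and 135 in KO and 263 and 141 in het, and those with 2, just outside, numbered 343 and 188 in KO and 391 and 218 in het. The 12 G2/M genes outside the rule had medians of 6 and 7 UMIs in KO and 6 and 8 in het at 3 rule UMIs. At 2 rule UMIs those medians were 4 and 4 in KO and 4 and 6 in het. Between 4% and 5% cardiomyocyte UMIs lay 507 and 338 chosen cells in KO and 532 and 463 in het. Between 3% and 4%, just outside, lay 290 and 121 barcodes in KO, and 888 and 136 in het, so that het 1 had the most barcodes just below that limit.

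The mitotic programme was far higher in the chosen cells. Of 7675 genes at 10 CPM or more in either class, 167 (2.18%) were at least 2-fold higher than in comparison cells in all 4 libraries and 0 (0%) were at least 2-fold lower. In direction alone, 3424 genes (44.6%) were higher in all 4 libraries and 1462 (19.0%) lower, with a median log2 ratio of 0.11 over all genes. After thinning these became 1985 (25.9%) and 1096 (14.3%), with a median of 0.07, and 172 genes (2.24%) were then at least 2-fold higher. Thinning both equalises depth and leaves out the shallower cells, and these were not separated. No test was made, since the transcripts of the same cells chose the classes. Ratios are log2 with 1 CPM added to both levels.

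Outside the rule's genes, the highest ratios among genes eligible for naming belonged to centromere, spindle and cytokinesis genes. Cenpf, a kinetochore protein, stood at 413 and 311 CPM in KO and 308 and 442 CPM in het, against 30.0 and 9.93 CPM in KO and 40.1 and 19.1 CPM in het in the comparison cells (median log2 ratio 4.10). Hmmr, which organises spindle microtubules, had a median log2 ratio of 4.03, and Aspm, a spindle-pole protein, 3.92. Cenpe, the kinesin that moves chromosomes to the spindle equator, followed at 3.91. Plk1, the polo-like kinase of mitotic entry, stood at 81.8 and 62.3 CPM in KO and 68.7 and 65.02 CPM in het, against at most 7.22 CPM in comparison cells (median 3.60). Kif23 and Kif20a, kinesins of the midzone and cytokinesis, had medians of 3.52 and 3.36, Aurka, the centrosomal aurora kinase, 3.38, and Mki67, which coats mitotic chromosomes, 3.24. Thinning left these medians between 2.77 for Mki67 and 4.17 for Plk1.

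Cyclins and their partners drive entry into mitosis. Of 11 measured genes of cyclin B and Cdk1 control outside the rule, 10 were higher in all 4 libraries and 8 at least 2-fold. Cks2 and Cks1b, small subunits of the Cdk1 complex, were the most abundant of the list. Cks2 stood at 479 and 396 CPM in KO and 413 and 296 CPM in het, against 80.3 and 55.6 CPM in KO and 80.5 and 43.0 CPM in het in comparison cells. Cdk1 itself stood at 288.5 and 234 CPM in KO and 258 and 165 CPM in het (median log2 ratio 2.08), and Ccna2, cyclin A2, at 265 and 207 CPM in KO and 222 and 176 CPM in het (2.94). Those 3 genes were lowest in het 2, and for each of them the KO and het libraries overlapped. All 15 mitotic kinases and chromosomal passengers were at least 2-fold higher in all 4 libraries. Birc5, the passenger protein survivin, stood at 389 and 334 CPM in KO and 359 and 273 CPM in het, and Cdca8, borealin, at 273 and 262 CPM in KO and 244 and 233 CPM in het.

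At the kinetochore, 31 of 31 measured genes were higher in all 4 libraries and 22 at least 2-fold. Cenpa, the centromeric histone, stood at 306 and 269 CPM in KO and 279 and 234 CPM in het, with a median log2 ratio of 2.58. Zwint, a kinetochore linker, had a median of only 0.23. Of 27 spindle and kinesin genes, all were higher and 24 at least 2-fold, and Hmmr and Kif23 had the highest medians of that list. Prc1, which bundles midzone microtubules, stood at 338 and 280 CPM in KO and 260 and 274 CPM in het (3.20). Stmn1 and Kif5b, which also serve cells outside mitosis, were among the most abundant of that list. All 22 genes of chromosome structure were higher and 13 at least 2-fold. Among them Top2a, topoisomerase II alpha, stood at 485 and 351 CPM in KO and 368 and 433 CPM in het (2.86), and Hmgb2 at 1545 and 1301 CPM in KO and 1379 and 1074 CPM in het (1.74). Cytokinesis genes numbered 13 higher of 16, and 11 of these were at least 2-fold higher. Rhoa and Chmp4b, general regulators of actin and of membrane cutting, had medians of 0.01 and -0.18.

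The anaphase-promoting complex divided between its regulators and its core. Of 19 measured genes outside the rule, 15 were higher in all 4 libraries but only 4 at least 2-fold, namely Espl1 (separase, 2.40), Mad2l1 (a checkpoint protein, 1.58), Pttg1 (securin, 1.54) and Fbxo5 (the inhibitor Emi1, 1.30). Espl1 was named after its values were seen. Anapc13 and Anapc5, subunits of the complex and among its most abundant transcripts, had medians of -0.23 and 0.26, and Anapc13 was lower in all 4 libraries.

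**Figure D1:**
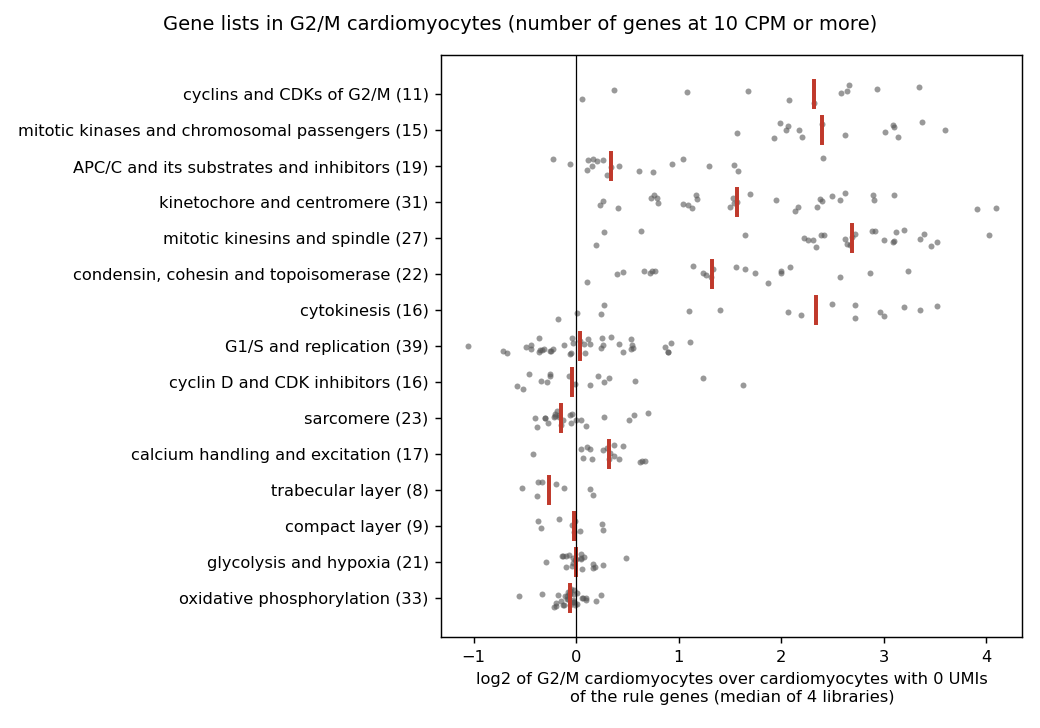
Each point is 1 gene at 10 CPM or more, placed by its median log2 ratio over the 4 libraries between G2/M cardiomyocytes and cardiomyocytes with 0 UMIs of Ube2c, Ccnb1 and Cdc20; red bars are list medians and numbers in brackets count genes. The lists of mitosis lie to the right of 0, with medians from 0.34 for the anaphase-promoting complex to 2.69 for kinesins and spindle, while lists of replication, sarcomere and metabolism lie around 0.

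Genes of the G1/S transition and of DNA replication were split. Of 39 measured, 14 were higher and 11 lower in all 4 libraries, against 44.6% and 19.0% of all genes. The median log2 ratio was 0.04 (0.11 over all genes). Rrm2 and Rrm1, subunits of ribonucleotide reductase, had medians of 0.92 and 0.90, and Dut, the dUTPase, 0.42. Pcna, the replication clamp, stood at 178 and 168 CPM in KO and 170 and 128 CPM in het (0.13). Among genes at 50 CPM or more, eligible for naming and lower in all 4 libraries, Ung had the lowest median log2 ratio (-1.06). Ung, a uracil-DNA glycosylase of S phase, stood at 28.2 and 41.9 CPM in KO and 29.2 and 40.3 CPM in het. In comparison cells it stood at 73.6 and 80.9 CPM in KO and 67.6 and 76.7 CPM in het. Cdt1 (-0.72) and Cdc6 (-0.68), which load the replicative helicase, were also lower in all 4 libraries; these were named after their values were seen. Both ribonucleotide reductase genes were thus higher, and these 2 loading factors lower, in every library.

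Among genes that set entry into the cycle, the cyclin D genes Ccnd2 and Ccnd3 were lower in all 4 libraries. Ccnd2 stood at 205 and 247 CPM in KO and 196 and 303 CPM in het, against 305 and 342 CPM in KO and 318 and 338 CPM in het in comparison cells (median log2 ratio -0.52). Ccnd3 had a median of -0.28, and Cdkn1c, the inhibitor p57, of -0.26. Cdkn1b, the inhibitor p27, was higher (0.57), as was Cdkn2d, the inhibitor p19 (1.23). Of 16 genes of this list, 4 were higher and 8 lower in all 4 libraries, against 44.6% and 19.0% of all genes.

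Sarcomere genes differed little in level. Of 23 sarcomere genes outside the rule, 5 were higher and 11 lower in all 4 libraries, against 44.6% and 19.0% of all genes. None was 2-fold lower in all 4. After thinning 1 was higher and 12 lower, with a median of -0.17. Ttn, the giant spring titin, was the exception among abundant genes at 7314 and 6904 CPM in KO and 6001 and 13643 CPM in het (0.56, or 0.20 after thinning), with het 2 highest. Myl1, a myosin light chain best known from fast skeletal muscle, had a median of -1.06. Among other genes of lowest ratio were Pygm, muscle glycogen phosphorylase (-0.61), Ucp2, a mitochondrial carrier (-0.61), Txlnb, a muscle taxilin (-0.57), and Cox8b, a muscle subunit of cytochrome oxidase (-0.56). Fahd1 (-0.68), Gtsf1 (-0.66) and the noncoding Zfas1 (-0.55) completed this group with CT010467.1 (-0.65), which has only a clone name. Of 33 oxidative phosphorylation genes, 19 were lower and 5 higher in all 4 libraries, with a median of -0.06.

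Chosen cells with different numbers of rule UMIs also differed in other transcripts. The classes are made from the values that chose the cells, so this is a description with no test. At an equal 5000 UMIs, the 12 G2/M genes outside the rule averaged 20.9 and 19.8 UMIs in KO and 19.2 and 22.7 UMIs in het in cells with over 10 rule UMIs. In cells with 3 to 5 rule UMIs they averaged 11.3 and 8.99 UMIs in KO and 8.64 and 12.02 UMIs in het. The helicase genes Mcm2 to Mcm7 went the opposite way, at 1.01 and 0.69 UMIs in KO and 0.85 and 0.81 UMIs in het over 10 rule UMIs, and at 1.72 and 1.79 UMIs in KO and 1.62 and 2.08 UMIs in het at 3 to 5. The order held in all 4 libraries at every step. Myl2 varied less, from 65.02 to 101 UMIs over all libraries and classes. Cells with 0 to 2 rule UMIs left after thinning had been the deepest in each library, with medians of 11901 and 21475 UMIs before thinning in KO and 12882.5 and 30495 UMIs in het.

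**Figure D2:**
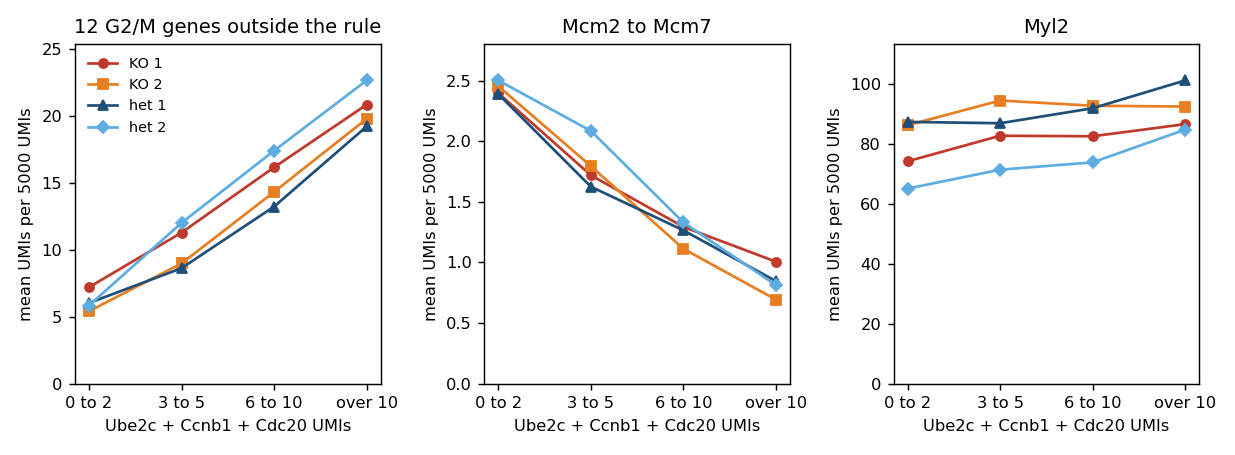
Lines show mean UMIs per 5000 UMIs in G2/M cardiomyocytes of each library, by the number of Ube2c, Ccnb1 and Cdc20 UMIs left after thinning, for the 12 G2/M genes outside the rule, for Mcm2 to Mcm7 and for Myl2. With more rule UMIs the 12 G2/M genes are higher (7.21 or lower at 0 to 2, 19.2 or higher over 10) and the Mcm genes lower.

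Gata4, the floxed gene, was present in the chosen cells at 63.5 and 63.8 CPM in KO and 70.3 and 64.8 CPM in het, a log2 difference of -0.01 (SE 0.19). The 2 KO values lay just below the 2 het values. Since the Cre is driven in endothelium, and since counts of 3′ tags may lie outside the deleted part, this does not check the labels. The reporter gene EGFP stood at 52.9 and 29.9 CPM in KO and 69.7 and 62.5 CPM in het, and dsRed at 216 and 255 CPM in KO and 208 and 360 CPM in het. EGFP marks recombined cells. In the comparison cardiomyocytes it stood at 54.0 and 32.1 CPM in KO and 58.8 and 51.7 CPM in het. After thinning, EGFP had a UMI in 18.5% and 10.3% of chosen cells in KO and in 23.2% and 21.5% in het. Whether these UMIs came from recombined cardiomyocytes or from RNA of other cells was not tested.

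The share of cardiomyocytes in G2/M overlapped between KO and het. At 5000 UMIs per cell, 34.3% (658 of 1918) and 33.8% (548 of 1620) of cardiomyocytes were in G2/M in KO and 35.9% (571 of 1591) and 33.7% (637 of 1892) in het. The Wilson 95% intervals ran from 32.2% to 36.5% and 31.6% to 36.2% in KO and from 33.6% to 38.3% and 31.6% to 35.8% in het. These intervals cover counting error only. The means were 34.1% ± 0.34 in KO and 34.8% ± 1.57 in het (SD, n = 2 each), a difference of -0.71 percentage points (two-sided exact permutation test, p = 1, where 2 against 2 libraries can give no less than 0.3333). Without het 1 the difference was 0.40. Without thinning the shares were 36.3% and 43.6% in KO and 38.3% and 48.4% in het, higher in the deeper library of each group. At 3000 UMIs they were 24.0% and 23.7% in KO and 23.6% and 23.4% in het. At 8000 UMIs they were 42.9% and 41.3% in KO and 46.5% and 40.9% in het. The level of the share thus moves with the depth chosen, which also sets the cells left out, and is not an absolute fraction in G2/M.

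Layer identity within the chosen cells was described by a score. Trabecular cells line the inner, sponge-like muscle and express the natriuretic peptide genes Nppa and Nppb, and compact cells of the outer wall express the repressor gene Hey2. A cell was typed by whether its UMIs of Nppa, Nppb, Bmp10, Irx3, Gja5 and Cited1 exceeded those of Hey2, Mycn and Prdm16. At 5000 UMIs, the trabecular genes of the score averaged 7.85 and 6.91 UMIs per chosen cell in KO and 10.5 and 5.25 in het. The compact genes averaged 0.76 and 0.62 UMIs in KO and 0.75 and 0.72 in het. The typed share thus depends on the levels of the genes scored and is not a proportion of cells per layer. Ties, 161 and 181 cells in KO and 116 and 250 in het, were left out. Of typed cells, 82.0% and 78.5% were trabecular-type in KO (577 and 499 cells) and 82.7% and 68.8% in het (570 and 571 cells). Het 2 was the lowest, with a Wilson 95% interval of 65.6% to 71.9%, and het 1 the highest. The means were 80.2% ± 2.48 in KO and 75.8% ± 9.85 in het (SD, n = 2 each), a difference of 4.45 points (two-sided exact permutation test, p = 1), which was -2.52 without het 2. In comparison cells the trabecular-type share was 78.5% and 78.0% in KO and 78.9% and 74.9% in het, so that it was higher in the chosen cells of 3 libraries and lower in those of het 2. Of 8 measured trabecular genes, 0 were higher and 5 lower in the chosen cells of all 4 libraries, against 44.6% and 19.0% of all genes. Of 9 measured compact genes, 1 was higher and 3 were lower. After thinning, 0 trabecular genes were higher and 4 lower, and 0 compact genes were higher and 5 lower. The summed level of the trabecular list was still higher in the chosen cells of het 1, at 3413 CPM against 3267 CPM. Cited1, a transcriptional coregulator, stood at 567 and 574 CPM in KO and 640 and 299 CPM in het, against 824 and 802 CPM in KO and 913 and 821 CPM in het in comparison cells (-0.52). Nppa, which encodes atrial natriuretic peptide, stood at 1005 and 942 CPM in KO and 1437 and 653 CPM in het. At 5000 UMIs, 34.6% and 33.5% of trabecular-type cardiomyocytes were in G2/M in KO and 36.6% and 33.9% in het. Of compact-type cardiomyocytes 30.0% and 31.2% were in G2/M in KO and 37.6% and 33.6% in het.

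**Figure D3:**
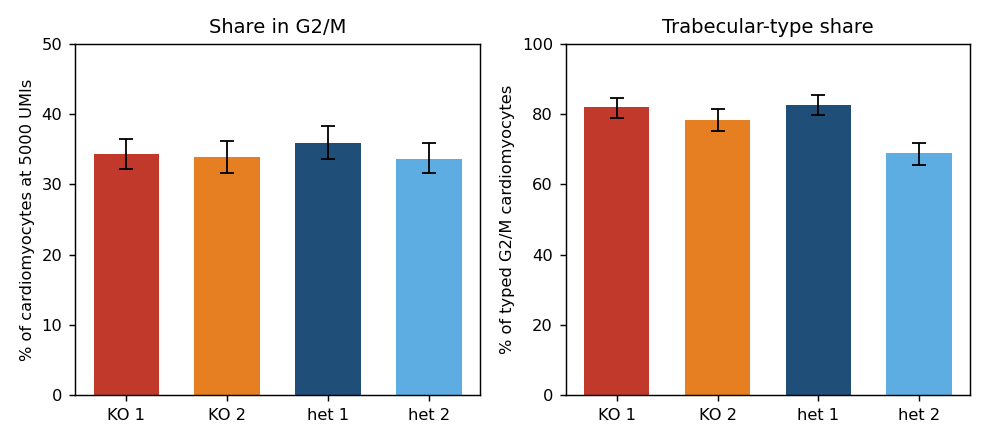
Bars show, per library, the share of cardiomyocytes in G2/M (left) and the trabecular-type share among typed G2/M cardiomyocytes (right), both with cells thinned to 5000 UMIs; whiskers are Wilson 95% intervals. The G2/M share lies between 33.7% and 35.9% in all 4 libraries, and het 2 is lowest in trabecular-type cells.

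Between KO and het, no gene of the chosen cells passed the test. Of 13873 genes tested on summed counts with edgeR's quasi-likelihood test, 0 (0%) had a Benjamini-Hochberg adjusted p under 0.05. No adjusted p was below 0.337, while 478 genes reached an unadjusted p under 0.05, 75 of them higher and 403 lower in KO. DESeq2 and limma-voom also called 0, with 236 and 467 genes at unadjusted p under 0.05. In comparison cardiomyocytes 0 (0%) of 11809 genes were called. Calls appeared when 1 library was left out: 80 genes without KO 1, 13 without KO 2, 0 without het 1 and 128 without het 2, where the lone library was assumed to vary like the other group. Without any test, 1041 genes (7.50%) had both KO libraries above both het libraries and 2711 (19.5%) had both below.

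No gene of mitosis passed the test between the groups. Of 140 mitotic genes outside the rule, 0 were called, 113 lay above 0 and 27 below, and the median log2 difference, KO over het, was 0.16, against -0.01 over all genes tested. That median was 0.081 without KO 1, 0.24 without KO 2, 0.10 without het 2, 0.088 without TMM and 0.094 without barcodes rich in other types' markers. The fixed limit of 3 rule UMIs chooses differently in libraries of different depth, and het 2 was the deepest. After thinning, 0 to 2 rule UMIs were left in 207 of 865 and 269 of 817 chosen cells in KO. In het they were left in 234 of 805 and 443 of 1080. With the chosen cells thinned to equal depth, the median log2 difference of the 140 mitotic genes was 0.21. Thinning also leaves out shallower cells, and it was applied after the fixed limit had chosen the cells. The part of depth in the mitotic difference was therefore not tested separately. Both KO libraries lay above both het libraries for 24 of the 140 and below for 3, against 7.50% and 19.5% of all genes tested. Aurka stood at 76.1 and 74.1 CPM in KO and 68.0 and 54.2 CPM in het, a log2 difference of 0.37 (SE 0.20). Spc25, of the Ndc80 complex at kinetochores, stood at 213 and 161 CPM in KO and 155 and 120 CPM in het, a log2 difference of 0.51 (SE 0.22). Neither passed the threshold, and the libraries did not overlap between the groups for either gene.

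Genes at 20 CPM or more that were eligible for naming were ranked by p where the libraries did not overlap between the groups. The 6 of lowest p among those higher in KO were Mt3 and the replication-dependent histone genes H3c3, H3c2, H3c7, H2ac7 and H3c6. None passed the threshold, and histones were not a list. H3c3 stood at 256 and 453 CPM in KO and 178 and 202 CPM in het, a log2 difference of 0.99 (SE 0.25), which missed the threshold (edgeR adjusted p = 0.687). H3c2 stood at 36.9 and 45.9 CPM in KO and 27.2 and 18.1 CPM in het (0.95, SE 0.23). H3c7, H2ac7 and H3c6 had log2 differences of 0.81, 1.04 and 0.63. These values moved when 1 library was left out, to 0.47 without KO 2 for H3c3, and without het 2 to 0.63 for H3c2, 0.46 for H3c7 and 0.53 for H2ac7. Without het 1 they were 1.24 for H3c7 and 1.72 for H2ac7. Histone genes of 1 class are near-identical, so reads may be split among copies and the single genes are uncertain, and most such transcripts lack the poly(A) tail that the method captures. Mt3, a metallothionein, stood at 34.2 and 46.5 CPM in KO and 25.7 and 23.3 CPM in het (0.81, or 0.52 without KO 2). Among chosen cells, H3c3 was lower at over 10 rule UMIs, with 0.61 and 1.35 UMIs per 5000 in KO and 0.52 and 1.36 in het, than at 6 to 10, with 1.82 and 3.81 in KO and 0.98 and 1.81 in het.

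Among genes lower in KO under the same conditions, those of lowest p included matrix genes, which other cardiac cells express strongly. Mfap2, a microfibril protein, stood at 16.1 and 12.1 CPM in KO and 31.4 and 29.0 CPM in het, a log2 difference of -1.03 (SE 0.21). Col1a2, a chain of type I collagen, stood at 9.23 and 7.06 CPM in KO and 28.2 and 15.5 CPM in het (-1.35, SE 0.28). For both the edgeR adjusted p was 0.337. Ptn, the growth factor pleiotrophin, had 25.9 and 26.1 CPM in KO and 61.6 and 44.4 CPM in het (-0.96). Nes, the intermediate filament nestin, had 12.2 and 8.28 CPM in KO and 19.8 and 21.5 CPM in het (-0.95). Casq1, calsequestrin of the muscle calcium store, had 24.1 and 20.0 CPM in KO and 36.6 and 44.0 CPM in het (-0.80). None of these passed the threshold. With barcodes rich in other cell types' markers left out, the log2 difference was -0.047 for Ptn and -0.68 for Mfap2. In that setting it was -0.66 for Nes and -0.57 for Casq1.

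Markers of several other cell types lay below 0, and their medians depended on single libraries. All 12 measured mesenchymal markers lay below 0 (median log2 difference -1.31), as did 13 of 13 endothelial (-0.86) and 8 of 8 macrophage markers (-1.29), with 0 called, while the median over all genes tested was -0.01. With 1 library left out these medians ran from -1.83 to -0.56 for mesenchymal, from -1.48 to 0.070 for endothelial and from -1.92 to -0.60 for macrophage markers, lowest without KO 1 and highest without het 1 in each case. Without KO 2 they were -0.90, -0.27 and -0.71, and without het 2 the endothelial median was -1.43. With barcodes rich in such markers left out the mesenchymal median was -0.022. That setting removes barcodes by these same markers, so no conclusion is drawn from it. Of 8 epicardial markers 2 lay above 0 (median -0.21), and they summed to 131 and 162 CPM in KO and 130 and 145 CPM in het. Of 10 erythroid markers 2 lay above 0 (median -0.57), and of 3 megakaryocyte markers 1 did (-0.93). Both KO libraries lay below both het libraries for 10 of 12 mesenchymal, 1 of 13 endothelial, 6 of 8 macrophage, 2 of 8 epicardial and 0 of 10 erythroid markers, against 19.5% of all genes tested. The mesenchymal markers summed to 87.3 and 47.5 CPM in KO and 229 and 105 CPM in het, the endothelial ones to 56.3 and 28.5 CPM in KO and 98.6 and 48.8 CPM in het, and the macrophage ones to 17.3 and 7.06 CPM in KO and 43.6 and 18.3 CPM in het. The mesenchymal, endothelial and macrophage sums were highest in het 1, the library with the most erythroid UMIs, and lowest in KO 2. No marker of these 3 lists was at 0 in any library. Their part in the differences above was not tested, and fewer such cells in the hearts and less RNA per cell cannot be told apart. When barcodes with 3 or more UMIs of other cell types per 10000 were left out, the log2 difference of Col1a2 was 0.12, a setting that removes barcodes by Col1a2 itself among others.

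**Figure D4:**
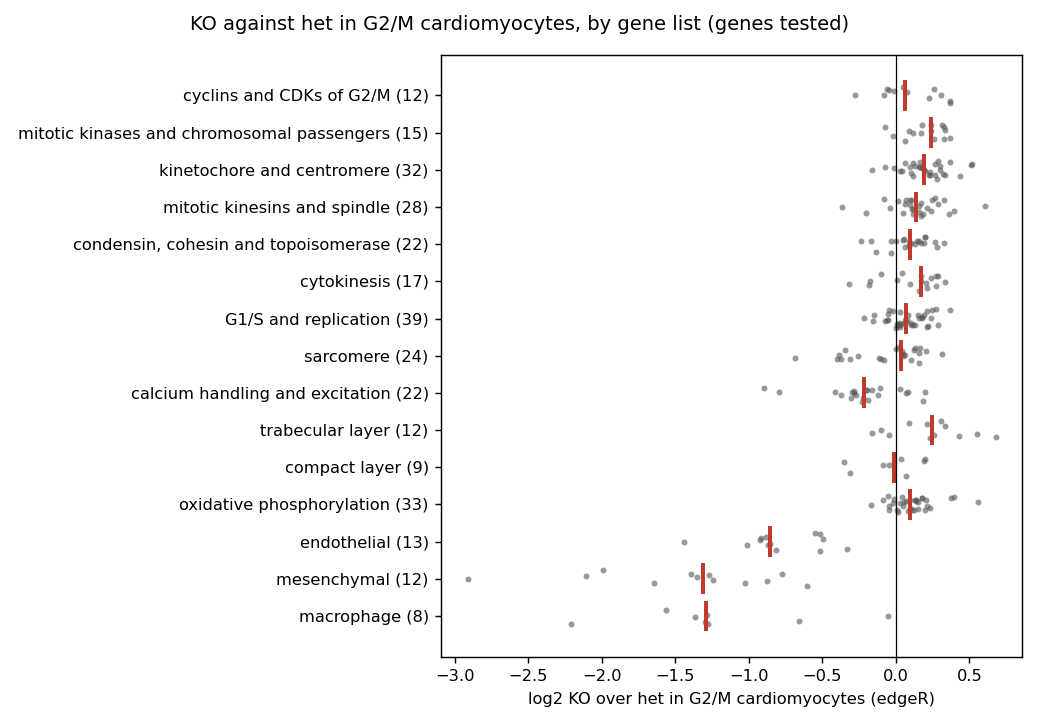
Each point is the log2 difference, KO over het, of 1 gene tested in G2/M cardiomyocytes, by list; red bars are list medians. No gene passes the threshold; lists of mitosis lie slightly above 0, and the endothelial, mesenchymal and macrophage lists lie below 0, with medians of -0.86 (0.070 without het 1), -1.31 and -1.29.

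For 4 genes the KO-het difference in the chosen cells itself differed from that in cardiomyocytes with 0 rule UMIs. The interaction was tested with edgeR and the library as a block, and 4 of 13343 genes (0.0300%) had an adjusted p under 0.05, all with a more negative difference in G2/M. Clu, on chromosome 14 (65968483 to 65981547, plus strand), encodes the secreted chaperone clusterin. It stood at 18.5 and 24.8 CPM in KO and 35.9 and 52.5 CPM in het in G2/M cells, and at 35.6 and 61.7 CPM in KO and 38.9 and 39.2 CPM in het in comparison cells. The G2/M levels of both KO libraries thus lay below both het libraries, while the comparison levels overlapped. The interaction was -1.36 (log2, SE 0.15; edgeR adjusted p = 4.3e-06), and it passed under every alternative run, with adjusted p from 7.2e-22 to 0.0055.

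Igfbp5, an insulin-like growth factor binding protein, stood at 56.8 and 26.7 CPM in KO and 73.7 and 61.5 CPM in het in G2/M cells, and at 83.2 and 65.4 CPM in KO and 75.3 and 52.8 CPM in het in comparison cells (interaction -0.999, edgeR adjusted p = 0.00075). Without KO 2 its adjusted p was 0.073, and over its alternatives the adjusted p ran from 7.2e-13 to 1.0, the highest with DESeq2. It also missed the threshold without TMM (0.066) and at a cardiomyocyte limit of 3% (0.053). Col3a1 and Col1a2, chains of types III and I collagen, had interactions of -1.08 and -1.36, with adjusted p of 0.00075 and 0.00088. Col3a1 stood at 23.7 and 12.3 CPM in KO and 69.8 and 27.8 CPM in het in G2/M cells, and at 34.5 and 21.7 CPM in KO and 48.4 and 23.7 CPM in het in comparison cells. Col1a2 lost its call without KO 1 (adjusted p = 0.12) and without Scrublet doublets (0.21), and both collagens lost theirs with DESeq2 (0.18 for Col3a1 and 0.65 for Col1a2) and with a cardiomyocyte limit of 3% (1.0 each). Both collagens are themselves among the mesenchymal markers, whose sum in comparison cells was 112 and 68.9 CPM in KO and 180 and 96.5 CPM in het; their part in these interactions was not tested. With barcodes rich in other types' markers left out, Clu and Igfbp5 kept an adjusted p of 0.00063 and 0.0040, and Col3a1 and Col1a2 had 1.0 each, a setting that removes barcodes by these collagens among others. The number of genes called moved when 1 library was left out, to 11 without KO 1, 8 without KO 2, 91 without het 1 and 94 without het 2. Among positive interactions of genes eligible for naming, the lowest p belonged to Thbs4, Mest and the histone gene H2bc4. Thbs4, the matrix protein thrombospondin 4, had 0.77 (edgeR adjusted p = 0.074), Mest 0.52 and H2bc4 0.59, and none passed.

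**Figure D5:**
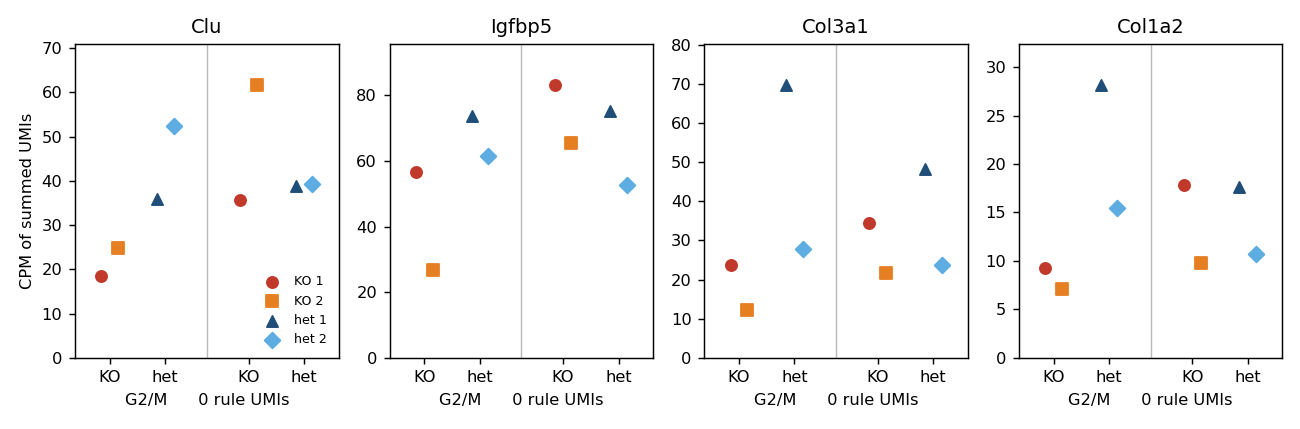
Points show the CPM of Clu, Igfbp5, Col3a1 and Col1a2 in each library, in G2/M cardiomyocytes (left side of each panel) and in cardiomyocytes with 0 rule UMIs (right side), with KO left of het. In G2/M cells both KO libraries lie below both het libraries for all 4 genes, and in the other cardiomyocytes they overlap.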

How the data were processed

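Single-cell RNA-seq was measured in 4 libraries, 2 KO and 2 het. The deposited matrices hold UMI counts per gene and barcode, made with Cell Ranger 6.0.1 per the file headers; the submitters' processing notes name mm10 and Seurat. The members and gene lists were chosen with earlier results of these data known. UMI counts of the chosen cells were summed per library and tested with edgeR 4.0.16 (quasi-likelihood, TMM, filterByExpr; R 4.3.3) and Benjamini-Hochberg adjustment at 0.05. DESeq2 1.42.0 and limma-voom (limma 3.58.1) were alternatives, as were other filters, other cell limits, thinning and leaving out each library. The fits were tested on simulated data. The interaction used the library as a block and was not run on thinned cells. Scrublet in Scanpy 1.11.5 called 16 and 5 chosen barcodes doublets in KO and 52 and 17 in het; they were kept, and left out as an alternative. Its automatic threshold worked in 1 library only and was used for all. Shares were compared with an exact permutation test, and their Wilson intervals came from SciPy 1.17.1. Genes were named by a rule: the rule's genes, Myl2, Gata4 and the reporters; the 12 highest and 10 lowest ratios at 50 CPM or more; the 6 of lowest p per direction at 20 CPM or more; up to 4 of lowest p and 4 of highest level per list; and 3 per direction for the interaction. The highest and lowest ratios had the same direction in all 4 libraries, and the 6 per direction had libraries that did not overlap between groups. Y-linked genes, Xist and Tsix were not eligible for these or for the interaction. Nor were globin, mitochondrially encoded and ribosomal-protein genes, or symbols that start with Gm, end in Rik or are shared. Promoters came from RefSeq. The labels name 2 different library kits.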

Additional observations from a re-analysis of the deposited data

Results flagged for a closer look

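In 4 genes the KO-het difference was tested to differ between G2/M cardiomyocytes and cardiomyocytes with 0 UMIs of Ube2c, Ccnb1 and Cdc20. The log2 interaction, with edgeR, was -1.36 for Clu, -1.36 for Col1a2, -1.08 for Col3a1 and -0.999 for Igfbp5, each more negative in G2/M. G2/M cells were deeper than the others in every library, most of all in het 2, with medians of 17667.5 UMIs in G2/M and 5566.5 UMIs in the other cells; the part of depth in these differences was not tested.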

How the results depend on the processing

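Genes called between KO and het, 0 in the analysis as reported, numbered 54 with no filter on low counts and 4 where 10 UMIs of G2/M genes outside the rule were also required, and 0 to 128 when 1 library was left out. With the replicate number as a block (the replicate block) 58 genes were called; with 2 pairs, whose deviations correlated at 0.34, the libraries share only a number. Interaction calls, 4 as reported, numbered 1 with DESeq2, 16 with no filter, 9 without barcodes rich in other types' markers, 9 without erythroid-rich barcodes and 1 at a cardiomyocyte limit of 3%, and 8 to 94 when 1 library was left out. The KO minus het difference in G2/M share was -8.11 points at a cardiomyocyte limit of 8%, -3.42 with no thinning, 1.54 at 5 rule UMIs, 0.58 without barcodes rich in other types' markers, 0.43 at a limit of 3% and 0.37 at 3000 UMIs, and -1.82 to 0.40 when 1 library was left out. The trabecular-type difference ran from -2.52 to 11.4 when 1 library was left out. With 1 library left out, the log2 difference ran from -0.077 (without het 2) to 0.60 for Ube2c, from -0.13 (without het 2) to 0.46 for Myl2, from -0.47 to 0.21 (without het 2) for dsRed, from -0.12 to 0.12 for Gata4 and from -1.48 to 0.070 (without het 1) for the endothelial median. The sign turned without barcodes rich in other types' markers for Col1a2 (0.12). Gata4 turned to 0.0065 with DESeq2, 0.03 without KO 1, 0.12 without het 1 and 0.060 at a limit of 3%. The causes were not tested. Before thinning, the limit of 8% left 3 and 7 chosen cells in KO and 13 and 10 in het. They came from 78 and 86 cardiomyocytes in KO and 74 and 80 in het, so the share difference at that limit rests on few cells. These chosen cells were too few for the gene tests and the trabecular share, which were not run. The limits of 3%, of erythroid UMIs and of 10 outside UMIs were chosen after seeing the data. Each group has 2 libraries, which limits the precision of every KO-het difference.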

Other observations

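Genes of calcium handling and of growth signalling differed little between the G2/M and the other cardiomyocytes, and their counts differed after thinning, which equalises depth and also leaves out cells under 5000 UMIs. Of 17 measured calcium and excitation genes, 8 were higher in G2/M in all 4 libraries and 1 lower, with a median log2 ratio of 0.32, and after thinning 3 were higher and 2 lower, with a median of 0.02. Atp2a2, the calcium pump of the sarcoplasmic reticulum, had a median of 0.42, or 0.08 after thinning. Pln, phospholamban, the inhibitor of that pump, was lower by either measure, with medians of -0.42 and -0.42. Of 13 genes of growth signals received by cardiomyocytes, 8 were higher in all 4 libraries and 3 after thinning. Over all genes, 44.6% were higher and 19.0% lower in all 4 libraries, with a median of 0.11. After thinning these shares were 25.9% and 14.3%, with a median of 0.07. Igf1r, the receptor of insulin-like growth factors, had a median of 0.71, or 0.15 after thinning.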
